A study of Drosophila melanogaster with 2 samples.

Results

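The genes Fib, Nop56, nop5, hoip, Nop60B, NHP2 and Rrp5, which act in the nucleolus, were examined for binding of CG17802 at their promoters. They were chosen by name, 7 of the 13945 protein-coding genes (18164 genes of all kinds) on the main chromosome arms, with earlier results of these data in view. Every listed peak summit within 500 bp of one of their transcription start sites (TSSs) was taken from the 4 deposited peak lists. Binding of CG17802 (gene symbol Nnk), a zinc finger protein, was profiled by chromatin immunoprecipitation and sequencing (ChIP-seq) in Drosophila melanogaster embryos, used whole, of both sexes and collected over 0 to 14 h. All embryos came from 1 transgenic line with a stable C-terminal GFP fusion of CG17802, and chromatin was sonicated to a range of 200 to 800 bp. There were 2 biological replicates in 1 group and no second condition, so the values are a description of these libraries and no comparison between conditions was made. A free-text field of the labels calls the libraries an input control, whereas the antibody field names CG17802, the assay is given as transcription factor ChIP-seq, and another experiment is listed as the control. In whole embryos, binding in few cells and weak binding in many cells cannot be told apart.

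Small nucleolar ribonucleoproteins (snoRNPs) are complexes of a guide RNA and a fixed set of core proteins that modify ribosomal RNA (rRNA) in the nucleolus. Box C/D particles add methyl groups to ribose, and their core is made of fibrillarin (Fib), Nop56, Nop58 (nop5 in the fly) and the RNA-binding protein known in yeast as Snu13, whose fly counterpart is hoip. Box H/ACA particles turn uridine into pseudouridine, with the dyskerin homologue Nop60B as the enzyme and NHP2, Nop10 and Gar1 as its partners. Rrp5 is not a core snoRNP protein: its yeast counterpart is an assembly factor of the pre-rRNA that is needed for both ribosomal subunits.

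The peaks of the authors' set made with a threshold on the irreproducible discovery rate (IDR), called thresholded here, lay at the promoters of Rrp5 and NHP2 only among the 7 genes. Their summits fell in short stretches outside annotated exons, which are shown because they hold the bound positions. Both are dm6 sequence from RefSeq, read 5′ to 3′ on the plus strand. The Rrp5 stretch, chr3R:24333317-24333432, is all that separates the Rrp5 TSS from the divergent TSS of Dis3, and the summit is its base 70. The NHP2 stretch, chr3L:14802169-14802379, runs from the base before the NHP2 TSS to the 3′ end of the neighbouring gene gnu, with the summit at base 174. The third stretch, chr3R:22421069-22421160, lies between the TSSs of Nop56 and mats, has a summit of the pooled list at base 27, and is shown for contrast because that peak was weak. No capitals are used, since none of the motifs searched lay in these stretches.
Rrp5: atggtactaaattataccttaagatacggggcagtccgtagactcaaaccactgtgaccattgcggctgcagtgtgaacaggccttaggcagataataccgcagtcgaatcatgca
NHP2: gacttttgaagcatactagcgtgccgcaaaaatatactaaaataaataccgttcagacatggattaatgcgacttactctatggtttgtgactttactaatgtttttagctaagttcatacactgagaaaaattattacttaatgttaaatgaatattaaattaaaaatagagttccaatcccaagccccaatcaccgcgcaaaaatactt
Nop56: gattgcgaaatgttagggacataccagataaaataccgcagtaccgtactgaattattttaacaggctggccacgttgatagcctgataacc
The Rrp5 stretch was 116 bp long with a GC content of 47.4%, the NHP2 stretch 211 bp with 31.8%, and the Nop56 stretch 92 bp with 42.4%.

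All 7 genes did share one short word near the TSS, the palindrome CACGTG, known as an E-box and bound by Myc among other factors. From 250 bp upstream to 50 bp downstream of the TSS, 586 of 13945 protein-coding genes (4.20%) had it. So did 25 of 36 other snoRNP and rRNA processing genes, so the word was not particular to the 7. This was seen after 6 words had been counted. The E-box windows are shown for the genes Rrp5, NHP2, Nop56, hoip and nop5, as dm6 sequence from RefSeq read 5′ to 3′ along the strand of each gene, with CACGTG in capitals. The windows are chr3R:24333267-24333296 (minus strand) for Rrp5, chr3L:14802132-14802161 (minus strand) for NHP2, chr3R:22421023-22421052 (minus strand) for Nop56, chr2L:9699807-9699836 (plus strand) for hoip and chr2L:6918733-6918762 (minus strand) for nop5.
Rrp5: atcggcgcttagCACGTGtagaacgcacgt
NHP2: ggtcacactgaaCACGTGtttcgaacaaaa
Nop56: acttgaagtaagCACGTGggaaaacaactg
hoip: ctaacgctaacgCACGTGtttgaaagcgat
nop5: agaccgaaggcaCACGTGcttgcacttcat
Where the TSS base is 0, the word began at +32 in Rrp5, at +19 in NHP2, at +28 in both Nop56 and hoip, and at -7 in nop5.

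The lists differ in what they hold. The thresholded set had 3535 peaks, which were the 3535 highest of the list called on both replicates pooled. Of these, 65 were not listed in both replicates (59 not in replicate 1 and 6 not in replicate 2). Of the 3470 listed in both, 721 stood below rank 3535 in replicate 1 and 282 in replicate 2. The pooled list and the list of each replicate had 30000 peaks each, which by design include background. A peak's signal is the authors' value, on a scale that is not stated. It was ranked within a list, with rank 1 the highest, and signals of different lists are not on a known common scale. The median signal was 186.5 in the thresholded set, 45.8 in the pooled list, 19.2 in replicate 1 and 33.3 in replicate 2. Read counts were not used here, so the depth is unknown.

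Of the 7 genes, 2 had a thresholded summit no more than 500 bp from a TSS, against 2352 of all protein-coding genes (16.9%). In the pooled list it was 6 of 7, against 47.0%. In replicate 1 it was 4 of 7, against 45.2%, and in replicate 2 it was 7 of 7, against 47.3%. Since the genes were chosen with these results known, nothing is read from those counts. The levels of the 7 genes were far apart. In the pooled list 1 held one of the highest peaks of the genome and 1 an average thresholded peak. The other 5 sat in the range that includes background or, for nop5, had no summit there. The order differed in replicate 1, where Fib (rank 2095) and hoip (rank 2714) stood above NHP2 (rank 12973).

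**Figure D1:**
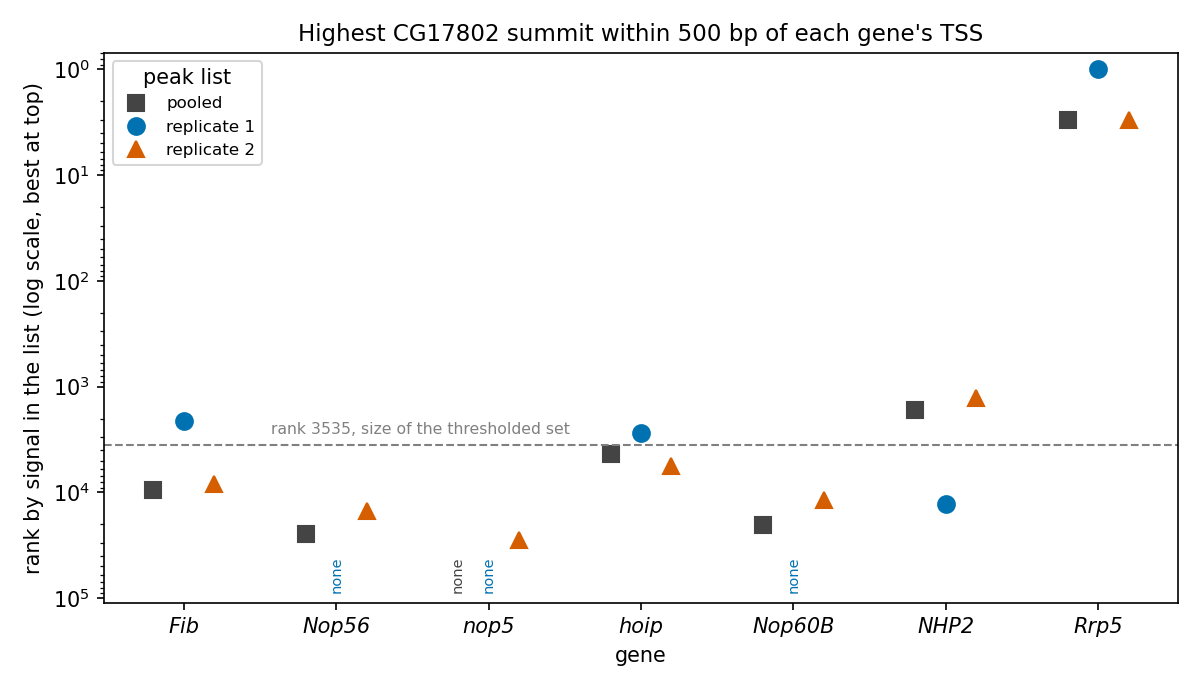
Rank by signal of the highest summit within 500 bp of each gene's TSS, in the pooled list and in each replicate's list, on a log axis with rank 1 at the top. Rrp5 stood at ranks 1 to 3 in all 3 lists, NHP2 was above rank 3535 (dashed line) in the pooled list and replicate 2 but not in replicate 1, and Fib and hoip were above it in replicate 1 only; "none" marks a list with no summit there.

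Among the box C/D genes, none of the 4 had a thresholded promoter peak, beside 16.9% of all protein-coding genes. Fib (FBgn0003062, dm6 chr2R:23072909-23074725, minus strand), which encodes the methyltransferase, had a summit 76 bp upstream of its TSS in the pooled list. Its signal there was 56.8 at rank 9417, and 35.7% of the 6551 genes with a pooled promoter peak had a lower highest signal. Replicate 1 gave 47.7 at rank 2095 at the same base, and replicate 2 gave 44.8 at rank 8348, with the summit 127 bp upstream and inside the 5′ UTR of CG3085. Fib was therefore placed higher in replicate 1 than in replicate 2. The CG3085 TSS, on the opposite strand, lay 98 bp from that of Fib and was closer to the summit in every list (22 to 29 bp).

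Nop56 (FBgn0038964, chr3R:22419095-22421068, minus strand), a scaffold protein of the particle, had a pooled summit 27 bp upstream of the TSS with a signal of 36.8 at rank 24890. Replicate 2 gave 33.5 at rank 14850, 15 bp downstream of the TSS in the 5′ UTR, and replicate 1 listed no summit within 500 bp. Only 7.37% of genes with a pooled promoter peak had a lower signal. The TSS of mats, a Hippo pathway kinase activator on the opposite strand, lay 93 bp away, and here Nop56 was the closer gene (mats at 66 and 108 bp). A stronger peak lay outside the 500 bp limit, 754 bp upstream in an intron of mats, with 80.4 in the pooled list, 25.5 in replicate 1 and 46.5 in replicate 2.

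The weakest values were those of nop5 (FBgn0026196, chr2L:6916753-6918743, minus strand), the other scaffold protein of the box C/D core. Replicate 2 alone listed a summit, 361 bp upstream, with a signal of 24.6 at rank 28128, and 2.32% of genes with a replicate 2 promoter peak had a lower one. No other gene had a TSS within 500 bp of it. The nearest summit beyond the limit was 874 bp upstream, in a coding exon of the splicing factor gene x16, with 54.7 in the pooled list and 31.2 in replicate 2 (877 bp upstream).

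The gene hoip (FBgn0286786, chr2L:9699791-9700459, plus strand) had the highest values of the 4 in the pooled list and in replicate 2. In replicate 1 it came after Fib (47.7 at rank 2095). A summit 453 bp upstream of its first TSS had a signal of 94.2 in the pooled list, rank 4353, and 39.9 in replicate 1, rank 2714. Replicate 2 placed it 452 bp upstream with 58.2 at rank 5618. The lowest thresholded signal was 109.8, so this was the peak of the 7 genes nearest to that limit from below. Its position was 41 to 42 bp from the TSS of Pka-C1, the catalytic subunit of protein kinase A, which is transcribed away from hoip from a TSS 494 bp upstream. A second, weaker summit lay in the hoip 5′ UTR, 32 bp downstream of the second of its TSS positions, with 40.1 in the pooled list (rank 20490). Replicate 1 had it at 37 bp downstream with 27.4 (rank 5620), and replicate 2 did not list it. Beyond the limit, a summit 918 bp downstream, 63 bp from the TSS of pelo, had 85.6 in the pooled list.

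Among the box H/ACA core genes, 2 of 4 had a thresholded promoter peak, NHP2 and Nop10, beside 16.9% of all protein-coding genes. With 4 genes in each class, nothing is read from the difference to box C/D. NHP2 (FBgn0029148, chr3L:14801328-14802168, minus strand) encodes a subunit of the particle. Its thresholded peak, chr3L:14802177-14802506, had its summit 174 bp upstream of the TSS, in the stretch shown above, and no other gene had a TSS within 500 bp. The signal was 196 at rank 1667 of both the thresholded and the pooled list. It was thus of middling height for a bound promoter: 45.6% of the 2352 genes with a thresholded peak had a lower signal, and their median was 213. The replicates placed it far apart, with 18.5 at rank 16681 in replicate 1 and 178 at rank 1268 in replicate 2. Their summits were 173 and 194 bp upstream. Replicate 1 also listed a summit 438 bp downstream of the TSS, in a coding exon, with 20.3 at rank 12973, which made it the highest of NHP2 in that list.

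The ratio of replicate 2 to replicate 1 signal at the NHP2 peak was 9.62. Across the 3470 thresholded peaks listed in both replicates the median ratio was 2.70, with 5% below 1.48 and 5% above 5.44. Of these peaks, 99.5% had a lower ratio than NHP2. In replicate 1, 66 of the 3470 (1.90%) stood at or below the rank of NHP2. The NHP2 peak was thus high in replicate 2 and low in replicate 1, with summits 21 bp apart. Among the 3535 highest peaks of replicate 2 alone were those of NHP2 and Rrp5, and among those of replicate 1 alone those of Fib, hoip and Rrp5 but not NHP2. At Rrp5 the same ratio was 2.11, and 24.9% of the thresholded peaks had a lower one. Fib (0.938) and hoip (1.46) had lower ratios than most: of 4499 pooled promoter peaks listed in both replicates, 2.56% and 16.7% were lower, and the median was 2.23.

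**Figure D2:**
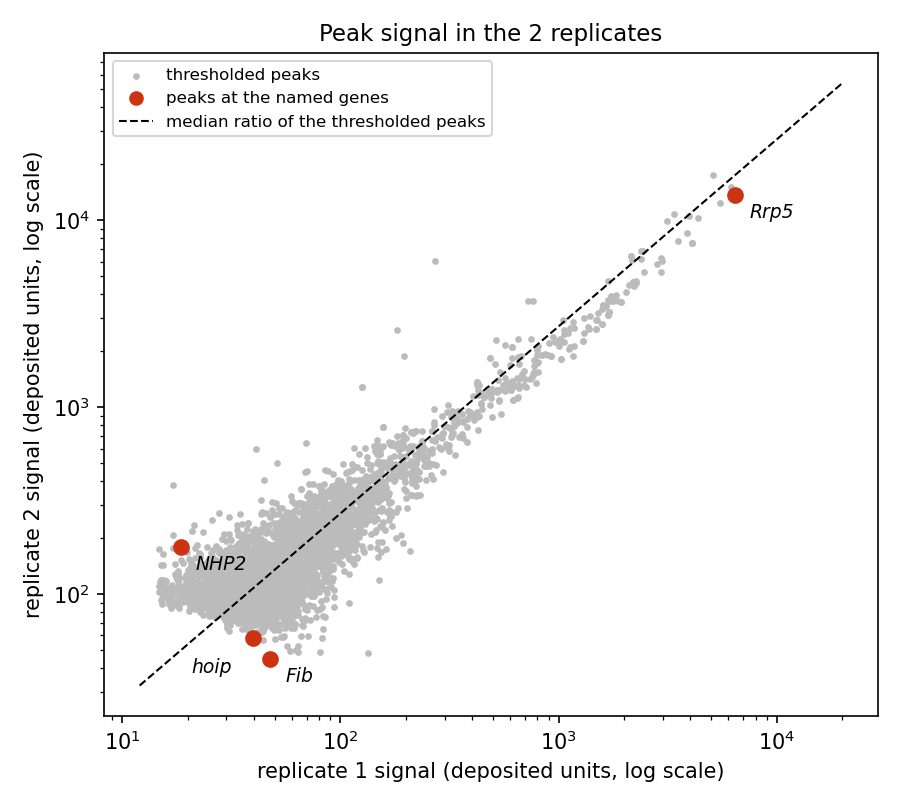
Signal of each thresholded peak in replicate 1 and replicate 2 (grey, both axes log scale, deposited units), with the peaks at Rrp5, NHP2, hoip and Fib in red and the median ratio of the thresholded peaks, 2.70, as a dashed line. Rrp5 lay close to the line at the top right, NHP2 far above it at the left edge, and Fib and hoip, which are not thresholded, below it.

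Nop60B (FBgn0259937, chr2R:24174877-24186343, plus strand), the pseudouridine synthase, had a pooled summit 356 bp upstream with a signal of 40.4 at rank 20108. In replicate 2 it was 393 bp upstream with 37.5 at rank 11718, and replicate 1 listed none within 500 bp. Both summits were closer to mRpS17, a mitochondrial ribosomal protein gene on the opposite strand (80 and 43 bp), whose TSS lay 436 bp from that of Nop60B. Just outside the limit, a pooled summit 568 bp upstream had 45.6. Another, 667 bp downstream in a coding exon of Nop60B, had 47.5 in the pooled list. Replicate 2 listed it 674 bp downstream with 38.7. Of genes with a pooled promoter peak, 13.9% had a lower signal than Nop60B. The other H/ACA partners went apart. Nop10 had a thresholded summit 68 bp upstream with 114 at rank 3365, near the lower limit of the set. A TSS of mms4 was also within 500 bp of it. Gar1 had no summit within 500 bp in any list.

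Rrp5 (FBgn0039182, chr3R:24328455-24333316, minus strand) stood apart from the other 6 genes. Its summit, dm6 position 24333386 on arm 3R, was at the identical base in all 4 lists, 70 bp upstream of the TSS. The signal was 19982 at rank 3 of the thresholded and the pooled list, 107 times the thresholded median. In replicate 1 it was 6462, the highest of all 30000 peaks, and in replicate 2 it was 13603 at rank 3. The interval, chr3R:24332998-24333844, was 847 bp wide, and 98.8% of the thresholded peaks were narrower. Only 1 of the 773 thresholded peaks on its chromosome arm was higher.

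The Rrp5 promoter is also that of Dis3, which encodes a nuclease of the RNA exosome, the complex that trims pre-rRNA and degrades its by-products. The Dis3 TSS lay 117 bp from the Rrp5 TSS on the opposite strand, and the summit was closer to Dis3 (47 bp). The lists therefore give 1 binding position for 2 divergent genes and do not assign it to either. With each summit given only to its nearest TSS, NHP2 remained as the only one of the 7 genes with a thresholded peak, and 12.3% of all protein-coding genes had one.

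**Figure D3:**
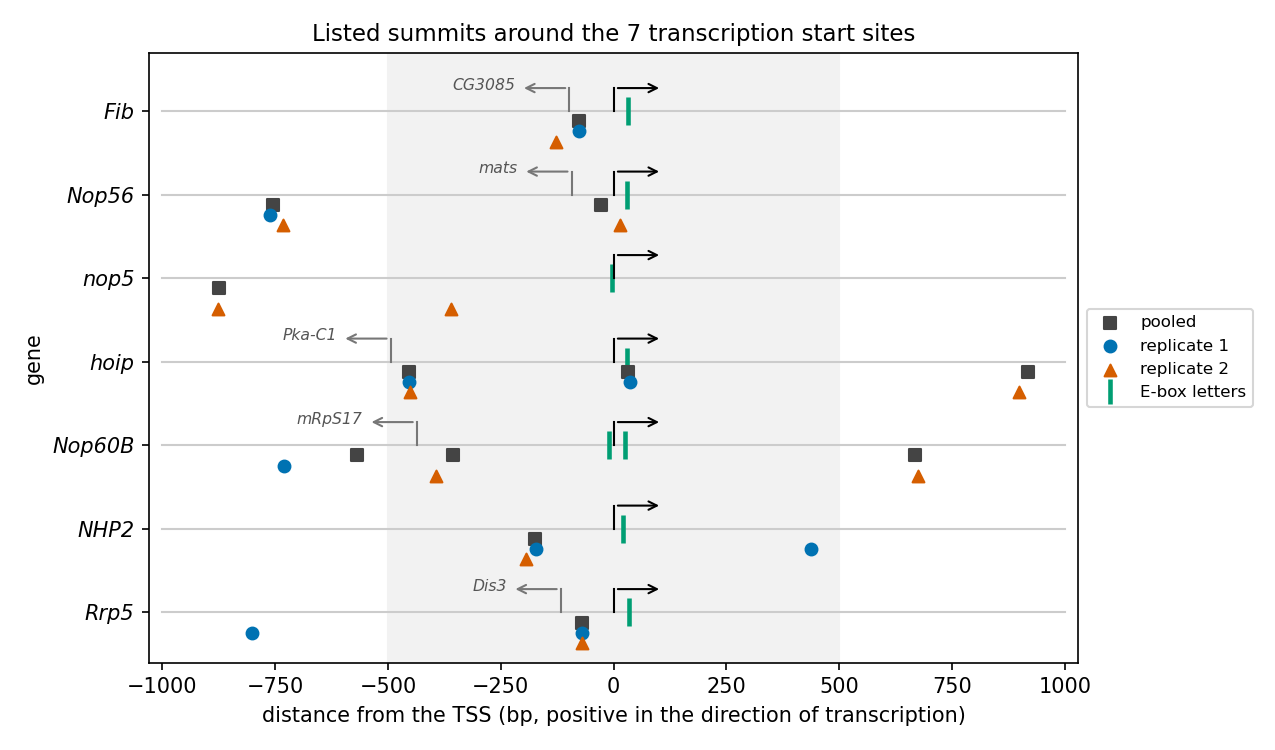
Listed summits within 1000 bp of each gene's closest TSS (x axis, bp, positive in the direction of transcription), by list, with the 500 bp limit shaded. Opposite-strand neighbours within it (grey arrows) and E-box words (green bars) are placed from the most upstream TSS. Only hoip has 2 TSS positions. Its downstream summits are drawn from the second, so they appear closer to its E-box than they are. Within the limit, the summits of Fib, Rrp5 and Nop60B and the higher summit of hoip lay closer to the neighbour's TSS. Those of Nop56 lay closer to its own, with the mats TSS at 66 and 108 bp. The summits of NHP2 and nop5 had no neighbour's TSS nearby.

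Divergent promoters were common in the group. A protein-coding TSS on the opposite strand lay within 500 bp upstream for 5 of the 7 genes, Fib, Nop56, hoip, Nop60B and Rrp5, against 26.4% of all protein-coding genes. For nop5 and NHP2 the nearest such TSS was at 1961 and 2968 bp. Across all genes, a thresholded promoter peak was found for 32.1% of the 3686 genes with such a neighbour and for 11.4% of the 10259 without, as a count in which 1 peak can serve both genes. Of the 5 divergent members 1 was bound, and of the other 2 members also 1.

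The genes also differ in what they host. Nop60B carries 7 annotated snoRNA genes within its span on the same strand, among them snoRNA:Psi18S-1820 and 4 copies of the snoRNA:Me28S-G1083 family. Fib and nop5 carry 1 each. The other 4 carry none. The share of hosts among all genes was not counted, so no link to the peaks is read from this.

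The words searched, 6 in all and each on both strands, were TATCGATA (the DRE, bound by Dref), GGTCACAC (part of Motif 1), CACGTG (E-box), at least 2 matches of CGATA (paired CGATA), the GAGA factor word GAGAG and the TATA box word TATAAA. A single DRE holds CGATA on each strand and so also counts as paired CGATA. Within 100 bp of the 2 thresholded summits of Rrp5 and NHP2 none of the 6 was present. Across all 1917 thresholded promoter summits the share with each was 10.3% for the DRE, 6.42% for Motif 1, 3.18% for the E-box, 22.3% for paired CGATA, 18.8% for GAGAG and 33.9% for TATAAA. A missing word says only that these letters are not in the window.

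In the promoter window from 250 bp upstream to 50 bp downstream of the most upstream TSS, the E-box was found in 7 of 7 members, against 586 of 13945 protein-coding genes (4.20%). This pattern was seen after the motifs had been counted, and the word is a match of letters, not a shown binding site. Of the 7, 6 had the word at or downstream of the TSS, between +19 and +32, whereas it began upstream in nop5. Fib had it at +30, and Nop60B had it at -13 and again at +22. In all genes with an E-box, 31.7% had one at or downstream of the TSS. The other words were in fewer members. GAGAG was in 3 of 7 (Fib, Nop56 and Nop60B), against 29.7% of all genes, and Motif 1 was in 2 (Nop56 and NHP2), against 7.70%. The DRE and paired CGATA were in 1, Nop60B, against 9.36% and 24.3%, and TATAAA was in 1, Nop56, against 45.8%.

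The summits of CG17802 lay at varied distances from the E-box, from 13 to 481 bp among those given here. The distance from the summit to the nearest base of the word was 102 bp in Rrp5 and 193 bp in NHP2 in the thresholded set, 106 bp in Fib and 343 bp in Nop60B in the pooled list, and 354 bp in nop5 in replicate 2. In Nop56 it was 55 bp in the pooled list and 13 bp in replicate 2. In hoip it was 481 bp for the higher pooled summit and 37 bp for the weaker one. Over all genes, 19.8% of the 586 with an E-box had a thresholded promoter peak, and 16.7% of the 13359 without.

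A further 3 lists of genes around rRNA synthesis were counted in the same way, with the 7 members left out. Other snoRNP and rRNA processing genes had a thresholded promoter peak in 13 of 36 (36.1%, Wilson 95% interval 22.5 to 52.4%), with a median signal of 249 against 213 for all genes with such a peak. The assembly factors of snoRNPs had 3 of 6 (interval 18.8 to 81.2%) with a median of 362, and RNA polymerase I genes 3 of 11 (27.3%, 9.75 to 56.6%) with a median of 191. The 7 members had 28.6% (8.22 to 64.1%). The share of all protein-coding genes was 16.9%, and the intervals of the 4 lists overlap each other. Since many of these peaks serve a divergent pair, the counts fell with each summit given to its nearest TSS, to 7 of 36, 1 of 6 and 1 of 11, while the share of all protein-coding genes fell to 12.3%. Taken from replicate 1 alone, the RNA polymerase I count was also 1 of 11, Tif-IA.

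The highest of the other processing genes was pths, a DEAD-box RNA helicase gene, with 1196 at rank 188 and no closer gene (291 in replicate 1 and 894 in replicate 2). Next came the kinase gene RIOK2 (749; GlnRS closer), eIF6, whose product keeps the large ribosomal subunit from joining the small one (616), and the nucleostemin family GTPase gene Ns2 (453; POSH closer). The snoRNP chaperone gene Nopp140 had 325 (CG7148 also within 500 bp) and the nucleolar GTPase gene Non1 had 290 (l(2)k10201 also within 500 bp). At eIF6 the antisense gene asRNA:CR45928 was closer to the summit (66 bp against 95 bp). Of the assembly factors, Pih1D1 had 379 (MRP also within 500 bp), Nop17l 362 (sax closer) and the AAA+ ATPase gene pont 270 (Sirt6 closer). Of the RNA polymerase I genes, the initiation factor gene Tif-IA had 454, in a centromere-proximal segment, Polr1D 191 (brat closer) and TAF1C-like 125 (MESK2 closer).

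The highest of these values, 1196 at pths, stood against 19982 at Rrp5. The divergent arrangement was present in 23 of 36 other processing genes, 6 of 6 assembly factors and 6 of 11 RNA polymerase I genes. Among the other processing genes, 10 of the 23 divergent ones and 3 of the 13 others had a thresholded peak, beside 32.1% and 11.4% of all protein-coding genes with and without such a neighbour.

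The E-box word was in 25 of the 36 other processing genes (69.4%, 53.1 to 82.0%), always at or downstream of the TSS, from +3 to +37 with a median of +31. It was in 5 of 11 RNA polymerase I genes (45.5%), again at or downstream of the TSS, and in 0 of 6 assembly factors (Wilson upper limit 39.0%). Of the other processing genes, 9 of the 25 with the word and 4 of the 11 without had a thresholded peak. In the RNA polymerase I list it was 0 of 5 and 3 of 6. Over all protein-coding genes it was 19.8% and 16.7%. Whether the word and the peaks go together was not tested.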

How the data were processed

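Peaks of CG17802-GFP ChIP-seq from 2 biological replicates were used as deposited, on dm6. Per the labels and the accompanying descriptions, the authors called peaks with a control on each replicate and on both pooled, as input for a reproducibility threshold (IDR) between replicates; the aligner, peak caller, settings and IDR cut-off were not given in the sources used here. As deposited, the signal of each peak has no stated scale. It was used for ranks, for ratios within a list and for ratios of replicate 2 to replicate 1. A ratio between replicates was read only beside the same ratio at other peaks. The deposited −log10 q-value, tied at its ceiling for 2303 pooled peaks, served only as an alternative rank. The deposited summit offset was added to the start of the interval; where it fell outside (1 peak of replicate 1, 4 of replicate 2) the midpoint was used.

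Genes came from Ensembl release 115 (transposable elements left out) and sequences from the RefSeq dm6 genome. Summits were assigned to every gene with a TSS within 500 bp. The genes named were the 7 members, every gene with a TSS within 500 bp of their summits, and up to 6 genes with the highest thresholded signal of each of 3 lists. Nop10 and Gar1 were added to complete the H/ACA core. Genes that share a summit with a named gene of the lists were given beside it. Members and lists were chosen with earlier results of these data known, so no test was run. Of the listed names, 10 matched no gene and 1 was a synonym of another gene and was not used. Shares have Wilson 95% intervals, which cover counting error only. The assignment was tested on 1000 simulated summits over 18164 genes: all 563 planted within the distance were recovered at the right distance and 0 beyond it. Alternatives covered the promoter distance, the TSS set, the annotation, the peak set, each replicate alone, the nearest gene, the q-value and the motif windows. Python 3.11.15, numpy 2.4.6, pandas 2.3.3, scipy 1.17.1 and matplotlib 3.10.9 were used.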

Additional observations from a re-analysis of the deposited data

How the results depend on the processing

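The count of members with a thresholded promoter peak stayed at 2 of 7 (NHP2 and Rrp5) at 200 and 1000 bp. It was the same with 1 TSS per gene, with the RefSeq annotation and among the 1767 strongest peaks of the set. The highest peaks of the pooled list are the thresholded set itself, so that setting was no separate check. With each summit given to the nearest gene only, the member count was 1 of 7. The other processing genes then had 7, the assembly factors 1 and RNA polymerase I 1, by construction at divergent promoters. With each replicate left out in turn the ranges were 2 to 3 for the members, 12 to 13 for the other processing genes, 3 to 3 for the assembly factors, 1 to 3 for RNA polymerase I and 16.5% to 16.8% for all protein-coding genes. RNA polymerase I had 1 at 200 bp. Among the 1767 strongest peaks, all genes had 9.67% and the other processing genes 7. Within 250 bp of the 2 thresholded summits, in place of 100 bp, Motif 1 was in 1 (NHP2), the E-box in 2, paired CGATA in 1 (Rrp5) and TATAAA in 1 (NHP2). At the 6 pooled summits Motif 1 was in 1, the E-box in 1, paired CGATA in 1, GAGAG in 2 and TATAAA in 2, since more summits were searched. E-box windows other than the main one were chosen after seeing the data. In the 250 bp upstream alone, the word was in 2 of 7 members (Nop60B and nop5), beside 2.86% of all protein-coding genes. It was in 0 of 36 other processing genes and 0 of 11 RNA polymerase I genes there. The counts thus rest on the bases at and after the TSS, except for nop5, whose only word lies upstream. With 500 bp upstream and 50 bp downstream all genes had 7.06%. Ranked by q-value, Rrp5 shares the ceiling with other peaks, which gives a mean rank of 1152. No paired analysis was possible because the samples form 1 group. The depth is unknown, so no limit from depth can be given.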
